A study of Mus musculus with 10 samples.

Results

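The comparison described here is the 4 h response of CD4-positive spleen cells of B10 mice to ionomycin given with the phorbol ester PMA (phorbol 12-myristate 13-acetate). The B10 cells (genotype B10Br in the labels) were measured on 5 arrays of the 10 in the study, and the other 5 hold the same design in the strain NOD (genotype NODk). All animals were females of 8 weeks, and CD4-positive splenocytes were sorted with magnetic beads. Stimulated cells (T1, n = 2 arrays) were held for 4 h with PMA at 10 ng/ml and ionomycin at 1 uM. Unstimulated cells (T0, n = 3 arrays) are called basal in the labels, but the protocol can also be read as culture for 4 h without drugs, so their handling is unclear. The arrays are labelled biological replicates and no label names the animal, so every p-value here measures the spread between these samples. Every gene with a probe set that carries exactly 1 gene symbol was a member, represented by its probe set with the highest mean, which gave 19938 genes. The change of a gene is the mean log2 intensity at T1 minus that at T0, so 1 unit is a 2-fold change. A gene is said to have risen or fallen where limma's two-sided test, with Benjamini-Hochberg adjustment over all 19938 genes, gave an adjusted p under 0.05. Probe sets differ in their response to RNA, so intensities are compared between arrays and not between genes.

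PMA stands in for diacylglycerol, the lipid that activates protein kinase C and the RasGRP exchange factors below the T cell receptor. Ionomycin carries calcium into the cell, which activates the phosphatase calcineurin and moves NFAT factors to the nucleus. Given together, the drugs bypass the receptor and induce cytokine genes and the machinery of cell growth in T cells.

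In B10 cells the drugs were followed by a broad change of the measured transcripts. At T1, 2729 genes had risen (13.7%) and 3613 had fallen (18.1%), which makes 6342 in all (31.8%). Most of these changes were small. At least 2-fold, 815 genes rose (4.09%) and 1061 fell (5.32%). At least 4-fold the balance turned, with 161 rises and 129 falls. At least 16-fold there were 11 rises and 1 fall, and the only changes of at least 64-fold were rises, those of Il3 and Il2. The median change over all genes was 0.03. Of the 6342 called genes, 6332 had no overlap between the arrays of T0 and T1. Non-overlap alone was common in a design of 3 against 2 arrays: 5342 genes (26.8%) lay higher on both stimulated arrays and 5098 (25.6%) lay lower.

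Falls came mostly from genes that were bright before stimulation, and rises of at least 2-fold were most numerous in the second-highest quintile of T0 intensities. In the highest quintile, 41.6% of genes fell and 25.5% rose. In the second-highest quintile, 33.6% fell and 23.3% rose, and in the lowest quintile 0.752% fell and 4.44% rose. At least 2-fold, 685 genes of the highest quintile fell and 297 rose, against 328 and 338 in the second-highest. A gene near background at T0 has little room to fall on an array, and the part of this limit in the result was not tested.

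**Figure D1:**
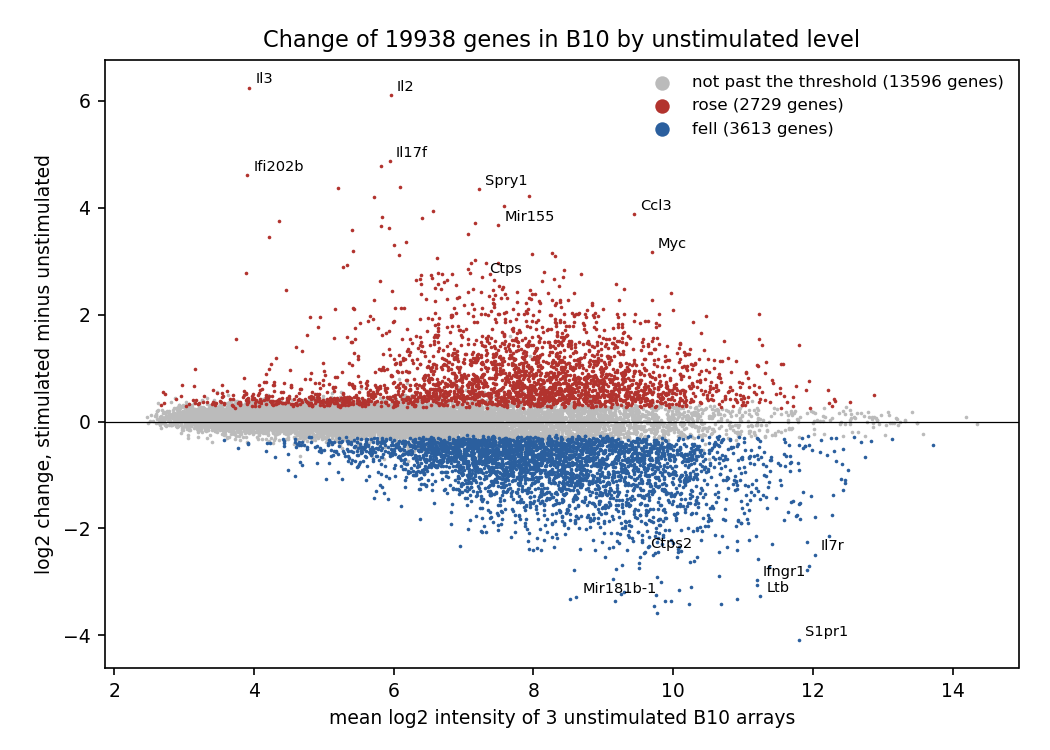
Change at 4 h in B10 (T1 minus T0, log2) against the mean log2 intensity at T0, 1 point per gene, with genes that rose in red, genes that fell in blue and the others in grey. The largest rises (Il3, Il2) start from low intensities and the falls of S1pr1 and Ifngr1 from high ones.

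The 5 B10 arrays were alike in scale. Pearson's r over genes was 0.993 to 0.995 between unstimulated arrays, 0.992 between stimulated arrays and 0.943 to 0.952 between the states. Genes chosen as CD4 T cell markers were bright, with array means of 10.82 to 10.87 at T0 and of 9.87 and 9.99 at T1, and 4 of 6 fell (Cd3d, Cd3e, Cd3g and Cd4). Markers of other cells were also measured. The mean of 8 B cell markers was 8.22 to 8.49 at T0 and 7.36 and 7.31 at T1. For 11 monocyte and macrophage markers it was 7.65 to 8.06 at T0 and 6.58 and 6.75 at T1, and 10 of them fell. For 6 erythroid markers it was 8.22, 7.48 and 9.34 on replicates 1, 2 and 3 of T0 and 8.16 and 9.63 on replicates 2 and 3 of T1, so replicate 3 was high in both states. Without both arrays of replicate 3, 2128 genes rose and 2748 fell. In a bulk sample, fewer cells of a type and less RNA per cell cannot be told apart.

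Ligand genes were prominent among the largest rises. Of the 40 largest, 15 belong to the lists of cytokine, chemokine and growth factor ligands, 5 to those of receptors and 4 to those of growth. Il3, a colony-stimulating cytokine, had log2 intensities of 4.01, 3.86 and 3.91 at T0 and 10.54 and 9.81 at T1, a change of 6.25 ± 0.17 (SE). Il2, the T cell growth factor, had 5.97, 6.06 and 5.83 at T0 and 12.19 and 11.92 at T1, a change of 6.10 ± 0.13. Both genes lay near or below the array medians of 6.18 to 6.23 in all unstimulated arrays and far above them in both stimulated ones. Mmp13, a collagen-cleaving protease, rose from 5.47, 5.93 and 5.76 to 9.97 and 9.87. The sequences of 250 bases before the starts of Il2 and Mmp13 (RefSeq, GRCm38.p6, strand of the gene) are given as examples that hold a core motif of the factors that the drugs activate. The windows of Il3 and Spry1, which also rose strongly, held neither motif. Capitals mark GGAAAA on either strand (TTTTCC on the other), the NFAT core, and TGANTCA, the AP-1 site. The Il2 window is chr3:37125955-37126204 on the minus strand, with 2 GGAAAA and 0 TGANTCA. The Mmp13 window is chr9:7272264-7272513 on the plus strand, with 1 of each.
Il2: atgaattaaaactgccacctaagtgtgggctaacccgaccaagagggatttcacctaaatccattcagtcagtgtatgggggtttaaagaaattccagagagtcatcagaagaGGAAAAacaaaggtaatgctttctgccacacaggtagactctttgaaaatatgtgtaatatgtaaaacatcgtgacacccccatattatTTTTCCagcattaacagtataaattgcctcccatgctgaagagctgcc
Mmp13: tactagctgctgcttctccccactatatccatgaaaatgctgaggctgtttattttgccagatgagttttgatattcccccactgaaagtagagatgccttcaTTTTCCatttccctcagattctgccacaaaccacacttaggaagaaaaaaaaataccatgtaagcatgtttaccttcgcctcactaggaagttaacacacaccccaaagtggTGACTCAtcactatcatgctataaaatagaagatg

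These letters were counted in the same window of all 15562 measured genes that have one. GGAAAA stood in 22.4% of all windows, in 146 of the 634 of genes that rose at least 2-fold and in 39.3% (11 of 28) of those of genes that rose at least 8-fold. TGANTCA stood in 7.11%, 7.89% and 17.9% (5 of 28). Genes that fell at least 2-fold had 21.9% and 5.24%, and genes without a call had 22.3% and 8.00%. The share with TGANTCA was thus no higher in genes that rose at least 2-fold than in genes without a call. A pair of other motifs had another order: CACGTG, the E-box that Myc can bind, stood in 8.12% of all windows, 12.3% of those of genes that rose at least 2-fold and 0 of the 28, and CCGGAAG, an ETS core, stood in 10.7%, 108 of the 634 and 0 of the 28. Among 26 promoters of mitochondrial import genes 42.3% held CCGGAAG, and among 42 of ribosome biogenesis genes 23.8%. A match of letters is a description of the window and not a measured site.

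The signalling chain that the drugs enter fell more often than it rose. Of 18 genes for protein kinase C, RasGRP factors and diacylglycerol handling, 1 rose and 9 fell (50.0%, against 18.1% of all genes). Rasgrp2, an exchange factor for Rap1 opened by calcium, fell by 2.03, and Prkd2, a kinase below protein kinase C, fell by 1.99. Prkcb, a classical protein kinase C, fell by 1.44, and Prkcq, the form that acts at the T cell synapse, fell by 0.46. The call of Prkcq was lost without stimulated replicate 2 and against a minimum change of 1.2-fold. The riser was Prkci (0.63), an atypical form that binds no diacylglycerol. The genes of calcium entry, calcineurin and NFAT behaved in a similar way, with 8 rises and 14 falls (48.3%) among 29. Both lists were bright, with array means at T0 of 8.94 to 9.04 and 8.53 to 8.56. In the highest quintile of T0 intensities, which starts at 8.33, 41.6% of all genes fell. The part of intensity in the falls of these lists was not tested. Orai1, the pore of the calcium-release-activated channel, rose by 1.49, while its relative Orai2 fell by 1.00. Itpr2, a channel that releases stored calcium, fell by 1.51. Ppp3ca, a catalytic subunit of calcineurin, had 8.97, 9.14 and 9.24 at T0 and 7.78 and 7.71 at T1, a change of -1.37 ± 0.11.

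Upstream of these enzymes, 22 of 34 genes of the T cell receptor and its proximal kinases fell and 8 rose, with a median change of -0.57 against 0.03 for all genes. The array means of this list at T0 were 9.67 to 9.70, in the highest quintile, where 41.6% of all genes fell. The part of intensity was not tested. Grap2, an adaptor that brings scaffold proteins to the receptor, went from 11.98, 11.73 and 12.05 to 8.90 and 9.39, a change of -2.78 ± 0.15. Txk, a Tec-family kinase, fell by 1.82, and Cd3g, a chain of the receptor complex, fell by 1.82. Zap70, the kinase recruited to that complex, rose by 1.32. Its opponents Ubash3a and Ubash3b moved apart. Ubash3a fell by 2.69 (6.45-fold) and Ubash3b rose by 2.02 (4.06-fold). Of 29 genes of phosphoinositide and mTOR signalling, 15 fell and 3 rose. Their array means at T0 were 8.41 to 8.49, also in the highest quintile, so the same limit applies. Inpp5d, a phosphatase that removes the lipid product of phosphoinositide kinases, fell by 2.42, and the kinase subunits Pik3cg, Pik3r1 and Pik3cd fell, with changes of -1.71, -1.71 and -1.66. Rragd, a GTPase that brings mTORC1 to the lysosome, rose by 1.70.

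Most listed genes of negative feedback on ERK and related kinases rose. Of 17 genes for dual-specificity phosphatases, Sprouty and Spred proteins, 11 rose and 2 fell, with a median change of 0.56. Against a minimum change of 1.2-fold, 7 rose. Not all of these phosphatases are specific to ERK. Spry1, an inhibitor of Ras signalling, had 7.17, 7.48 and 7.01 at T0 and 11.53 and 11.60 at T1, a change of 4.34 ± 0.15 (20.3-fold). Spred1 rose by 1.54, and the phosphatase genes Dusp16, Dusp4 and Dusp6 rose 2.29-fold, 2.21-fold and 2.12-fold. The fallers were Dusp10 (-1.27) and Spred2 (-1.07), and the latter was not called without both arrays of replicate 3. The kinases themselves were split, with 6 rises and 8 falls among 20. Mapk6, an atypical kinase known as ERK3, rose by 2.27 and Map2k3, an activator of p38, by 2.03, whereas Map3k1 fell by 1.17. In the NF-kB list 12 of 25 rose and 6 fell. The inhibitors and co-regulators Nfkbid, Nfkbiz and Nfkbia rose by 2.41, 1.96 and 1.43, the subunit Rel by 1.08, and the deubiquitinase Cyld fell by 1.98.

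Among the early transcription factors, 11 of 16 AP-1 and ATF genes rose and none fell. The largest rises were those of Atf3 (2.67) and Batf (2.47), and Fosb, Fos and Jun rose by 1.85, 1.73 and 1.57. Junb and Jund had changes of -0.05 and -0.03. Of 14 EGR, NR4A, NAB, IER and SRF genes 8 rose, led by Ier3, Egr1 and Egr2 at 2.31, 2.06 and 2.02. The faller was Nab2 (-0.32), a co-repressor of EGR factors, and its call was lost when any 1 of the 5 B10 arrays was left out. Myc, the growth regulator, was nearly the same on both stimulated arrays, with 9.77, 9.69 and 9.61 at T0 and 12.86 and 12.86 at T1 (change 3.17 ± 0.10). The MAX-binding opponents of Myc moved the other way or showed no call. Mxd4 fell by 2.25, Mxd1 by 1.03 and Mxi1 by 0.88, while Max and Mnt had changes of -0.01 and -0.04. Myc and these partners belong to a list of 47 other inducible transcription regulators, of which 13 rose and 17 fell, with a median of -0.16. In the same list Irf4 rose by 2.57, Tbx21, the regulator of type 1 helper cells, by 2.47, and Gata3, that of type 2 helper cells, rose 2.30-fold.

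Ligand genes held the largest rises and many genes without a call. Of 40 interleukins and colony-stimulating factors, 19 rose, 14 of these at least 2-fold, and 2 fell, and the median change was 0.33. Counted only among genes above the median intensity, 11 rose. Il17f and Il17a rose by 4.88 and 4.78, Il10 by 4.39, Csf2 by 4.37 and Ifng by 4.22. The stimulated arrays differed for some of them. Il10 had 11.24 on replicate 2 and 9.70 on replicate 3, Il21 had 10.68 and 8.65, and Il5 had 8.99 and 7.21. Each of these values lay above all 3 unstimulated arrays. Of 15 TNF-family ligands 7 rose, including Cd40lg (2.77), the helper signal to B cells, and Tnfsf8 (2.70). Ltb, which makes the membrane form of lymphotoxin, was the faller at -3.27, and 2 fell without stimulated replicate 2. Of 22 chemokine genes 12 rose, led by Ccl4 (4.04) and Ccl3 (3.88). Of 25 growth factor genes, 5 rose and 3 fell, with a median of 0.09, and 1 fell without stimulated replicate 2. Inhba, the activin subunit, rose by 1.54.

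**Figure D2:**
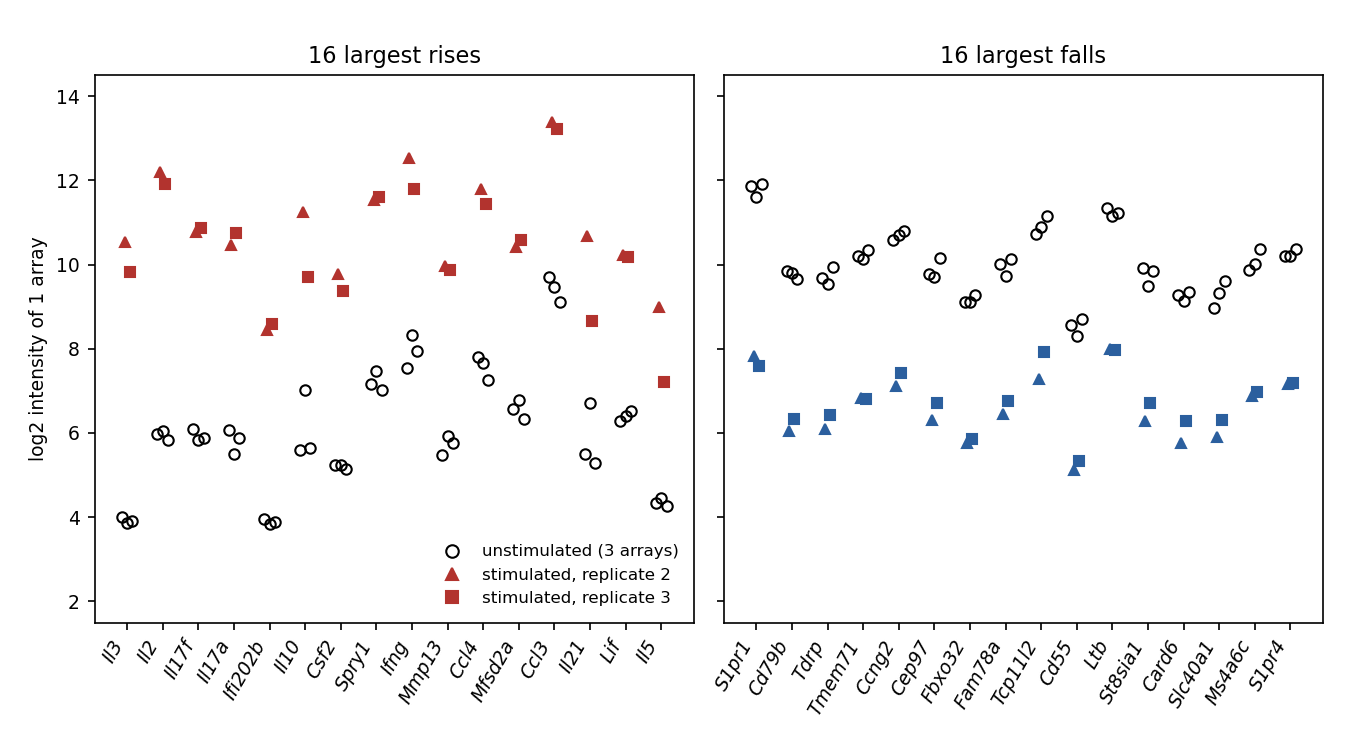
Log2 intensity of each B10 array for the 16 largest rises (left) and the 16 largest falls (right), with open circles for the 3 unstimulated arrays, triangles for stimulated replicate 2 and squares for stimulated replicate 3. In no gene shown do the states overlap, and Il10, Il21 and Il5 are the rises in which the stimulated arrays lie farthest apart.

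Receptors for cytokines fell more often than they rose, unlike the cytokines. Of 34 receptor chains, 20 fell and 5 rose, and the median change was -0.54. Their array means at T0 were 8.43 to 8.51, against 5.71 to 5.88 for the interleukins and colony-stimulating factors. In the highest quintile of T0 intensities 41.6% of all genes fell, and the part of intensity in this contrast was not tested. Ifngr1, the ligand-binding chain for interferon gamma, had 11.33, 11.14 and 11.13 at T0 and 8.35 and 8.12 at T1, a change of -2.96 ± 0.12 (7.80-fold). Il7r, the survival receptor of resting T cells, fell by 2.49, and Ifnar1 and Tgfbr2, which bind type I interferon and TGF-beta, fell by 1.80 and 1.61. The rises included Il2ra (3.14), the chain that gives the interleukin-2 receptor its high affinity, Il1r2 (2.15), a decoy receptor, and Il15ra and Il23r (1.33 and 1.29). The remaining rise was that of Il4ra (0.34), whose call was lost in several alternatives. Of 27 chemokine and lipid receptors of migration 10 fell and 6 rose, with a median of -0.17. S1pr1, the receptor for leaving lymphoid tissue, fell by 4.09, and its relative S1pr4 had a change of -3.09, while Ptger4, a prostaglandin receptor, rose by 1.84 and Gpr183, an oxysterol receptor, by 1.81. Among 25 integrins and adhesion genes 12 fell and 4 rose, with Itga6, Selplg and Itga4 at -2.35, -2.23 and -1.85. Alcam, the ligand of CD6, rose by 3.02. Of 35 costimulatory and inhibitory receptors, 13 rose and 9 fell. Cd200 (3.62), Slamf1 (3.16) and Cd274 (2.10), the gene of PD-L1, were among the rises, and Cd96 (-2.28) among the falls.

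Genes for building ribosomes rose more completely than any other list of at least 20 measured genes examined here. Of 48 ribosome biogenesis genes 46 rose and none fell, 39 of them at least 2-fold, with a median change of 1.48. Rrp1b, a nucleolar protein, had 6.65, 6.73 and 6.47 at T0 and 9.73 and 9.64 at T1, a change of 3.07 ± 0.13 (8.39-fold). Mrto4, which assembles the ribosomal stalk, rose by 2.66, Noc3l by 2.51 and Polr1b, the second-largest subunit of RNA polymerase I, by 2.28. Only Taf1d (0.22) and Wdr12 (0.32) were not called, and each was called as a rise in at least 1 alternative. By contrast, among the 57 proteins of the cytosolic ribosome itself 10 rose and none fell, with a median of 0.10. That count was 16 with trend and robust settings and 6 without stimulated replicate 3. Rpl12 was the largest of these at 1.46. Of 27 RNA polymerase subunits 16 rose and 5 fell. Polr3g rose by 1.81, and Polr2a, the largest subunit of RNA polymerase II, fell by 1.15. Of 9 exosome subunits, which trim and degrade RNA, 7 rose, with Exosc2 at 1.47.

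Among genes of translation, tRNA synthetases and translation factors were counted separately. Of 18 genes listed as cytosolic tRNA synthetases, 14 rose with a median of 0.90, led by Tars (3.61-fold) and Iars (2.82-fold). The 2 fallers were Qars (-0.43) and Fars2 (-0.55), and Fars2 encodes a mitochondrial enzyme. Without stimulated replicate 3, 1 of the 2 was called. Of 15 mitochondrial tRNA synthetases 3 rose and 2 fell, with a median of 0.08. Among 41 translation factors 27 rose and 3 fell. Eif2b3, a subunit of the exchange factor for eIF2, had 7.22, 7.10 and 6.99 at T0 and 10.11 and 10.05 at T1 (2.98 ± 0.11, 7.87-fold), and the cap-binding Eif4e rose by 1.28. Eef2 and Eef1a1, the main elongation factors, had changes of -0.00 and 0.08.

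Supply of building blocks rose at named steps. Of 31 genes of purine and pyrimidine synthesis 20 rose and 2 fell. Ctps, which makes CTP from UTP, had 7.10, 7.28 and 7.43 at T0 and 9.96 and 9.98 at T1, a change of 2.70 ± 0.12 (adjusted p = 6.64e-09). Its homologue Ctps2 had 9.60, 9.50 and 9.65 at T0 and 7.16 and 7.10 at T1, a change of -2.45 ± 0.16 (adjusted p = 9.94e-08). In both genes the states were far apart, in opposite directions. Umps, the enzyme that completes UMP, rose by 2.01. The ribonucleotide reductase genes Rrm1 and Rrm2 and thymidylate synthase Tyms, which serve DNA synthesis, had changes of -0.45, -0.11 and -0.08 and were not called. Rrm1 was called as a fall with a fixed replicate block (adjusted p = 0.00768 in limma) and in the fit of the 5 B10 arrays alone (adjusted p = 0.0230). In the serine and one-carbon list 11 of 23 rose, led by Asns (2.86), Shmt1 (2.75), Shmt2 (1.89) and Psat1 (1.79), while the stress-induced Sesn1 and Ddit4 fell by 1.73 and 1.25. Of 10 polyamine genes 7 rose. Srm, spermidine synthase, had 8.25, 8.12 and 8.08 at T0 and 10.94 and 10.95 at T1 (2.80 ± 0.10), Odc1 rose by 1.00, and Oaz2, an inhibitor of the latter enzyme, fell 2.83-fold. Amino acid, glucose and ion transporters rose in 18 of 30 cases and fell in 7, among them Slc7a1 (4.52-fold), which carries arginine, and Tfrc (4.01-fold), which takes up iron; without both arrays of replicate 3 the falls were 3.

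**Figure D3:**
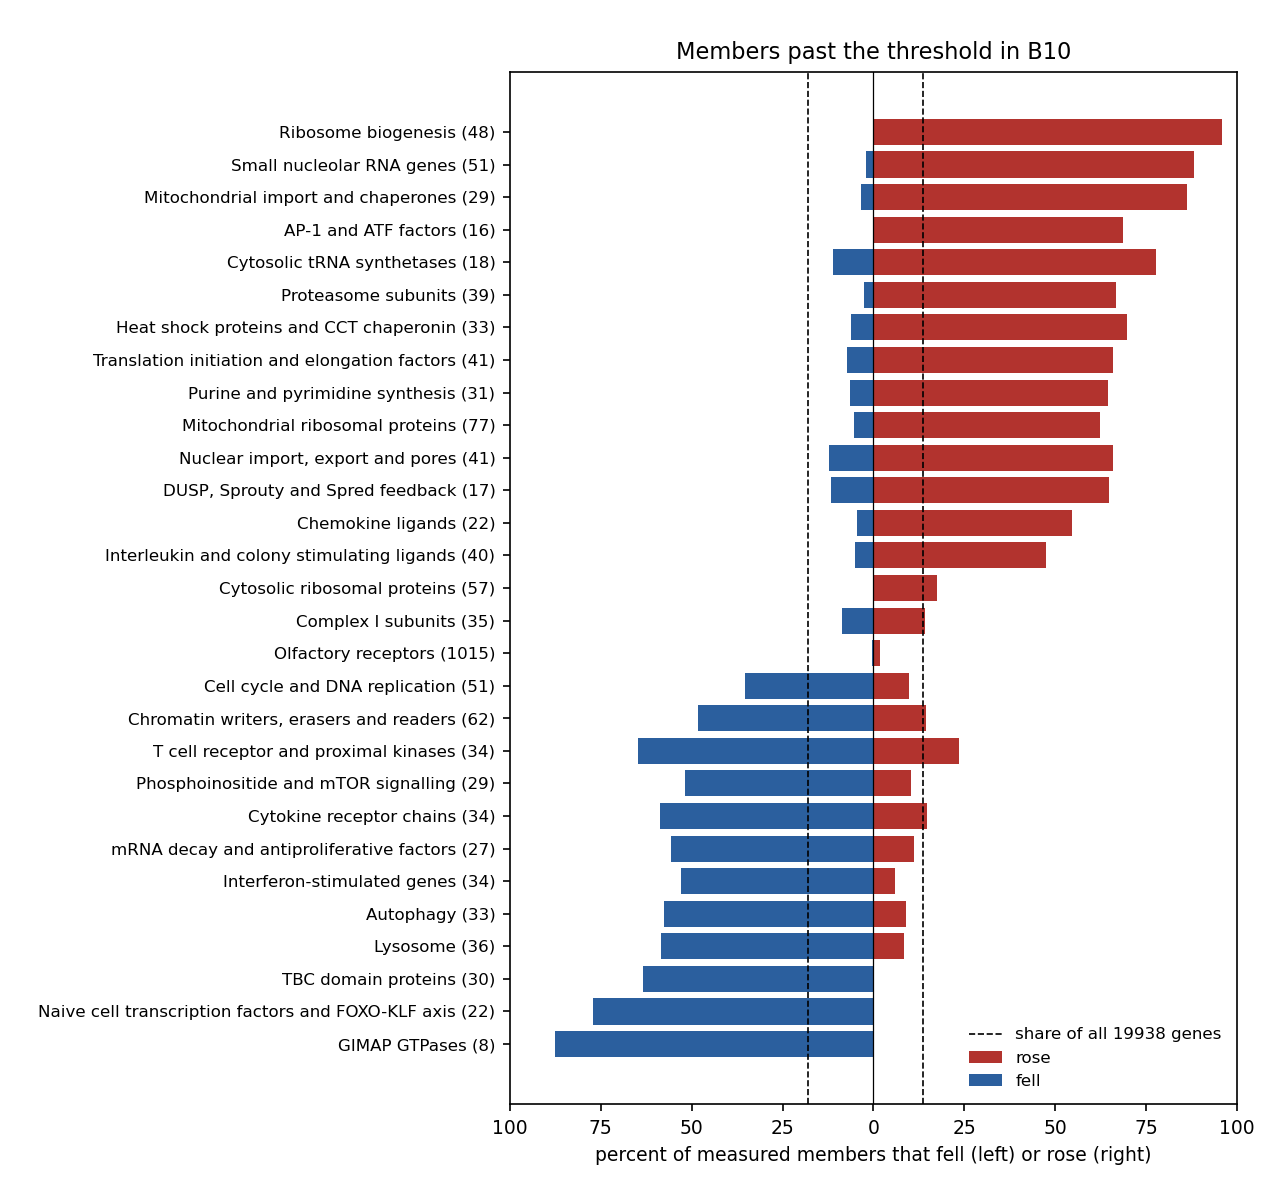
Percentage of measured members that rose (red, right) and fell (blue, left) in B10 for the gene lists named on the vertical axis, with the number measured in brackets; dashed lines mark the 13.7% and 18.1% of all genes. Ribosome biogenesis (46 of 48) and small nucleolar RNA genes (45 of 51) reach farthest to the right, and GIMAP GTPases (7 of 8) farthest to the left.

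Small nucleolar RNAs guide the chemical modification of ribosomal RNA, and most are cut from introns of other genes. Of 51 measured small nucleolar RNA genes 45 rose, 37 at least 2-fold, with a median of 1.25, and 1 (Snora30, -0.37) fell. That call was lost without stimulated replicate 2, stimulated replicate 3 or unstimulated replicate 3. By position in RefSeq (GRCm38.p6, strand not checked), 28 of them lie inside 25 measured genes. Host here means the shortest measured gene around the small RNA gene. It need not be the transcript from which the small RNA is cut. In 27 of these 28 pairs the small RNA gene changed upward relative to its host. The median change was 1.46 for the small RNA genes and 0.17 for the hosts. Hosts rose in 10 of the pairs with a risen small RNA, were not called in 15 and fell in 1, that of Snord87 in Mcmdc2 (-0.40). The fall of Mcmdc2 was not called in several alternatives, among them those without unstimulated replicate 2 or stimulated replicate 3. The exception among the 28 was Snord57 (0.82) in Nop56 (1.04).

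Ribosomal protein genes held many of these pairs. All 12 small nucleolar RNA genes that lie inside 10 of them rose, with a median of 1.65, against 0.12 for the hosts, of which only Rplp2 (0.59) rose. Snord42b was at 2.07 and Snord42a at 1.93, and their host Rpl23a was at 0.15. Snora62 was at 1.99 in Rpsa at 0.08, and Snord37 at 1.55 in Eef2. Of the 10 ribosomal protein hosts 9 were in the highest quintile of T0 intensities, as were 23 of all 25 hosts; whether such bright probe sets could register a rise was not tested. A probe set inside an intron can also detect the unspliced host transcript, so these values are not levels of the mature small RNA. The spliced host transcripts Snhg15, Snhg16 and Snhg17 rose by 1.74, 2.11 and 2.19.

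**Figure D4:**
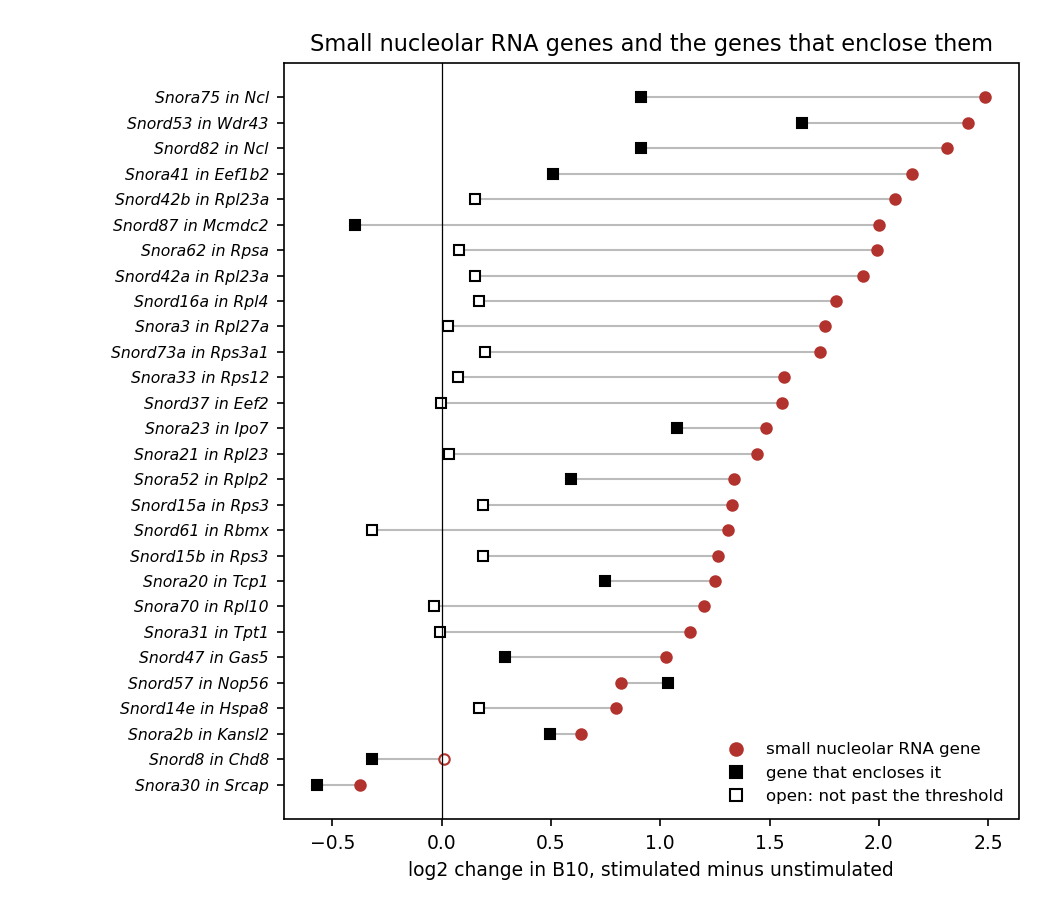
Change in B10 (T1 minus T0, log2, horizontal axis) of each of 28 small nucleolar RNA genes (red circles) and of the gene that encloses it (black squares), joined by a line; open symbols did not pass the threshold. The red circle lies to the right of the square in 27 pairs, and Snord57 in Nop56 is the exception.

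Among mitochondrial genes, those of import and of the ribosome rose most often. Of 29 genes of mitochondrial import and chaperones 25 rose and 1 fell, with a median of 0.94. Timm10, a chaperone of the intermembrane space, and Chchd4, which traps small proteins there, rose by 2.56 and 2.43. Timm10 had 7.03, 6.83 and 6.84 at T0 and 9.46 and 9.44 at T1. Tomm34, a cytosolic chaperone partner despite its name, fell by 0.93. Of 77 mitochondrial ribosomal proteins 48 rose and 4 fell, with a median of 0.49; against a minimum change of 1.2-fold, 30 rose. Complex I subunits numbered 5 rises and 3 falls among 35 (median 0.04), although the assembly factor Ndufaf4 rose by 2.01. The rises were 3 without stimulated replicate 2 or without unstimulated replicate 3, and the falls were 1 without both arrays of replicate 3 and 5 without unstimulated NOD replicate 2. Of 28 genes of the tricarboxylic acid cycle 5 rose and 11 fell. Idh3a, the catalytic chain of the mitochondrial NAD-dependent enzyme, rose by 1.23 and Idh1, the cytosolic NADP-dependent enzyme, fell by 2.23. Without both arrays of replicate 3, 7 fell. Among 25 glycolysis and pentose phosphate genes 8 rose and 6 fell, with Hk2, the first enzyme of the path, at 2.35, and 5 rose without stimulated replicate 2. Of 39 proteasome subunits 26 rose, with Psmd11 at 1.17, and 15 rose against a minimum change of 1.2-fold. The faller was the immunoproteasome subunit Psmb10 (-1.29).

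Transport through the nuclear envelope and protein folding followed the growth lists. Of 41 genes of nuclear import, export and pores 27 rose, 13 at least 2-fold, and 5 fell, with a median of 0.43. Ipo4, an import receptor for histones and ribosomal proteins, had 7.88, 7.91 and 8.01 at T0 and 10.12 and 10.35 at T1, a change of 2.31 ± 0.10. Ran, the GTPase that gives this traffic its direction, rose by 1.30 and Xpot, which exports tRNA, by 1.39, while the general exporter Xpo1 fell by 0.59. Without both arrays of replicate 3, 3 of the list fell. Of 33 heat shock and chaperonin genes 23 rose and 2 fell, with a median of 0.73, and none of them fell without both arrays of replicate 3. The listed subunits of the CCT chaperonin were all among the rises, from Cct2 (0.53) to Cct3 (1.45), and Hsph1, a nucleotide exchange factor of Hsp70, rose by 1.48. The folding genes of the endoplasmic reticulum were split, with 10 rises and 8 falls among 32 and a median of 0.04. Ppp1r15a, which reverses the phosphorylation of eIF2, rose by 1.45 and Eif2ak3, a kinase that places it, fell by 1.57.

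Lipid genes rose and fell in near equal numbers. Of 26 cholesterol genes 11 rose and 8 fell, with a median of 0.07. Sqle, which oxidises squalene, had 7.13, 7.26 and 7.39 at T0 and 9.38 and 9.39 at T1 (2.12 ± 0.11), and Idi1 and Fdft1, earlier enzymes of the path, rose by 1.73 and 1.49. The largest falls of the list were those of Mylip (-2.13), which degrades the LDL receptor, and Abca1 and Abcg1 (4.01-fold and 3.70-fold), which export cholesterol. Without both arrays of replicate 3, 4 of the list fell. Among 20 fatty acid genes 7 rose and 7 fell. Scd2, a desaturase, went from 9.99, 9.86 and 9.64 to 6.94 and 6.72, a change of -3.00 ± 0.16 (7.98-fold), and Cpt1a, which admits fatty acids to mitochondria, fell by 1.31. Acsl4, which activates long fatty acids, rose by 1.56.

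Lists of survival and effector genes held both rises and falls. In the BCL2 family 3 of 17 rose and 4 fell, with a median of -0.10. These shares, 17.6% and 23.5%, lay near the 13.7% and 18.1% of all genes. Bcl2l1, the gene of the survival protein BCL-XL, had 7.65, 7.65 and 7.97 at T0 and 9.84 and 10.13 at T1 (2.23 ± 0.13), whereas Bcl2 fell by 0.78 and Mcl1 by 0.49. Of 20 cytotoxic and NK genes 2 rose and 4 fell. Gzmb, the protease granzyme B, rose from 5.67, 6.01 and 5.76 to 9.83 and 9.09 (3.65 ± 0.19, 12.6-fold), while Prf1 and Gzma, which encode perforin and granzyme A, had changes of -0.05 and -0.09. Of 13 SOCS, CIS and PIM genes 5 rose and 3 fell, with Cish, an inhibitor of cytokine signalling, at 2.02 and the kinase Pim1 at 1.55. Among 20 genes of regulatory T cells 8 rose and 4 fell, and the list shares Il2ra and Il10 with the lists above. Foxp3, their defining factor, had a change of 0.37 that was not called (adjusted p = 0.0536 in limma) but was called in several alternatives, among them those without unstimulated replicate 2 or stimulated replicate 3, and Ikzf4, another factor of these cells, fell by 0.69. Without stimulated replicate 2, 5 of the list rose. In the hypoxia list 6 of 21 rose and 8 fell, with Adm, adrenomedullin, at 2.13 and Pdk1, which restrains entry of pyruvate into the cycle, at -1.40.

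Genes linked to resting T cells fell together. Of 22 genes of naive cells and the FOXO and KLF axis 17 fell and none rose, with a median of -1.34. The list is not limited to transcription factors, since it also holds S1pr1, Ltb and Il7r, which other lists above count too. This list was assembled with earlier results of these data known. Its array means at T0 were 10.40 to 10.62, in the highest quintile, where 41.6% of all genes fell. The part of intensity was not tested. Klf3, a repressor of the Kruppel family, had 9.95, 9.88 and 10.33 at T0 and 7.35 and 7.67 at T1, a change of -2.54 ± 0.14. Ets1 fell by 2.15, Elf1 by 1.90, Klf7 by 1.80 and Lef1 by 1.70. Foxo3 and Foxo4 fell 2.29-fold and 2.02-fold, and Foxo1 and Klf2 had changes of -0.06 and -0.35 without a call, though Klf2 was called as a fall in several alternatives. Pdcd4, an inhibitor of translation, fell by 3.06. In the cell cycle list 18 of 51 fell and 5 rose, and its largest falls were those of Ccng2 (10.7-fold), Rbl2 (5.78-fold) and Cdkn1b (4.41-fold), which are known to restrain proliferation. Cdk6 and Cdk4, kinases of early G1, rose by 1.99 and 1.18. The proliferation markers Mki67, Top2a and Ccna2 had changes of -0.03, -0.43 and 0.00 without a call. Top2a was called as a fall with a fixed replicate block (adjusted p = 0.0252 in limma). Mki67 differed by -2.10 between the stimulated arrays (replicate 2 minus replicate 3) and by -1.40 between the unstimulated arrays of those numbers. Its change near zero is thus a mean over arrays that lay far apart.

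Genes of self-digestion fell. Of 33 autophagy genes 19 fell and 3 rose, with a median of -0.53. Atg13, a subunit of the kinase complex that starts autophagy, had 9.59, 9.41 and 9.66 at T0 and 7.47 and 7.39 at T1 (-2.12 ± 0.10). Its partners Rb1cc1 and Ulk1 fell by 1.68 and 1.21, and Atg14, of the lipid kinase complex, fell by 1.69. Atg16l2, Atg3 and Atg4b rose by 0.91, 0.85 and 0.63. Of 36 lysosomal genes 21 fell and 3 rose, with a median of -0.61. Array means at T0 were 8.29 to 8.46 for the autophagy genes and 8.38 to 8.48 for the lysosomal genes. In the highest quintile, which starts at 8.33, 41.6% of all genes fell, and the part of intensity was not tested. Lipa, the acid lipase, fell by 2.29, and the protease genes Ctso, Ctsh and Ctsd fell, with changes of -1.89, -1.87 and -1.81. Lysosomal genes are rich in macrophages, whose marker mean was 7.65 to 8.06 at T0 and 6.58 and 6.75 at T1 on the same arrays, and the part of those cells in the result was not tested. The lysosomal calcium channel Mcoln2 rose by 1.07. The same limit touches some of the largest falls, because Cd79b (-3.57) and Bank1 (-2.77) are B cell genes and Slc40a1 (-3.19), the iron exporter, is strong in macrophages.

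Most genes of the TBC domain and GIMAP families fell. Of 30 TBC domain genes, which switch off Rab proteins, 19 fell and none rose, with a median of -0.47. Tbc1d10c, an inhibitor of calcineurin, had 9.28, 9.11 and 9.55 at T0 and 7.19 and 7.53 at T1 (-1.95 ± 0.14), and Tbc1d8b and Tbc1d5 fell by 1.82 and 1.59. Of 8 GIMAP genes, GTPases linked to lymphocyte survival, 7 fell, with Gimap7 and Gimap3 at -1.85 and -1.83. Against a minimum change of 1.2-fold, 4 of the 8 fell. Array means at T0 were 10.25 to 10.30 for the GIMAP genes and 7.47 to 7.52 for the TBC domain genes. In the quintiles of those intensities, 41.6% and 33.6% of all genes fell, and the part of intensity was not tested.

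Genes of chromatin and of mRNA decay fell more often than the 18.1% of all genes, unlike the exosome subunits described above. The shares that fell were 48.4% and 55.6%. These lists were bright at T0, with array means of 8.91 to 9.08 and 9.49 to 9.59, and 41.6% of all genes in the highest quintile fell. The part of intensity was not tested. Of 62 chromatin writers, erasers and readers 30 fell and 9 rose. The demethylase genes Kdm2a and Kdm5a fell by 1.93 and 1.80 and the remodeller Smarca2 by 1.76. The rises included the methyltransferase genes Suv39h2 (1.75) and Ezh2 (1.51) and the DNA demethylase Tet2 (1.73). Of 27 genes of mRNA decay 15 fell and 3 rose. Xrn1, the exonuclease that degrades decapped RNA, fell by 1.73 and Cnot6, a deadenylase, by 1.32. The rises were Zc3h12c, Zfp36l1 and Zfp36 (1.91, 1.37 and 0.58), which bind or cut cytokine messages. Among 345 genes named Zfp, 100 fell and 32 rose, and without both arrays of replicate 3 the falls were 64. Interferon-stimulated genes fell in 18 of 34 cases and rose in 2, with Ddx58, the RNA sensor RIG-I, at -2.08 and Ifi205 at 2.93. The mean of that list was 7.45, 7.91 and 7.54 on replicates 1, 2 and 3 of T0 and 7.22 on both arrays of T1, and 4 rose without unstimulated replicate 2 and 1 without stimulated replicate 2. Among genes that T cells do not use, 19 of 1015 olfactory receptors rose (1.87%) and 3 fell (0.296%), none at least 2-fold. Without unstimulated replicate 2, 8 rose. Their array means at T0 were 4.03 to 4.09, within the lowest quintile, where 4.44% of all genes rose and 0.752% fell. Receptors so near background cannot check the calls made at higher intensities.

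Of 291 genes with a microRNA symbol, host transcripts included, 32 rose and 18 fell, 11 and 8 at least 2-fold. These counts were unstable, since 19 rose without stimulated replicate 3, 18 without both arrays of replicate 3, and 16 rose and 7 fell among genes above the median intensity. The share of these 291 genes that rose lay below the 13.7% of all genes, and 6.19% fell, against 18.1% of all genes. Their array means at T0 were 5.08 to 5.14, in the second-lowest quintile, where 5.24% of all genes rose and 3.16% fell. The part of intensity was not tested. The array detects the transcript at the gene, which may be the primary transcript and is not the mature RNA. Mir155, needed for normal lymphocyte responses, had the largest rise of the microRNA genes. It had 7.36, 7.90 and 7.23 at T0 and 11.22 and 11.14 at T1, a change of 3.68 ± 0.17 (12.8-fold, adjusted p = 8.71e-09). The members of the Mir17 cluster on chromosome 14 rose together with their host transcript Mir17hg (1.86): Mir19a by 2.65, Mir19b-1 by 2.48, Mir18 by 2.39, Mir20a by 2.29 and Mir17 by 2.19. Such genes share 1 transcript and are not independent. Mir181b-1, of a family that sets the sensitivity of the T cell receptor, had the largest fall, from 8.68, 8.36 and 8.79 to 4.92 and 5.75 (-3.28 ± 0.25). Its neighbour Mir181a-1 fell by 1.82. Mir29a fell by 1.92, Mir15b by 1.72 and Mir16-2 by 1.55. The last pair lie inside Smc4, which fell by 1.10. Mature sequences from RefSeq (GRCm38.p6) are shown for these genes, since risers and fallers carry different seeds. Capitals mark the seed, bases 2 to 8. The first line rose, the next 5 belong to the Mir17 cluster, and the last 5 fell.
mmu-miR-155-5p: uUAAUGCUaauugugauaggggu
mmu-miR-17-5p: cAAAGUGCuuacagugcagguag
mmu-miR-20a-5p: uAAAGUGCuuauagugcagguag
mmu-miR-18a-5p: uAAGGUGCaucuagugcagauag
mmu-miR-19a-3p: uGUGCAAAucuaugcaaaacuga
mmu-miR-19b-3p: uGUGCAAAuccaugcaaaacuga
mmu-miR-181a-5p: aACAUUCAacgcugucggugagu
mmu-miR-181b-5p: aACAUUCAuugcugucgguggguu
mmu-miR-29a-3p: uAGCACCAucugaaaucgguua
mmu-miR-15b-5p: uAGCAGCAcaucaugguuuaca
mmu-miR-16-5p: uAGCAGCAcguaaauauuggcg

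In GRCm38.p6, mmu-miR-155-5p lies at chr16:84714143-84714165 and mmu-miR-181b-5p at chr1:137966650-137966673, both on the plus strand. Within the printed set, the cluster members of Mir17 and Mir20a share the seed AAAGUGC and those of Mir19a and Mir19b-1 share GUGCAAA. The fallers Mir181a-1 and Mir181b-1 share ACAUUCA, and Mir15b and Mir16-2 share AGCAGCA. Elsewhere a shared seed did not go with a shared direction, since Mir106b, which also carries AAAGUGC, fell by 0.49. That call was lost without both arrays of replicate 3. Of 138 pairs of a microRNA gene and the measured gene around it, 8 rose together, 9 fell together, 1 microRNA rose in a host that fell and 0 fell in a host that rose. In 16 pairs the host rose and in 22 it fell while the microRNA gene was not called. A microRNA gene rose in 4 pairs and fell in 2 where the host was not called, and in 76 pairs neither was called.

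Several genes moved against a gene of like name. Among 2448 groups of 2 to 12 measured genes whose symbols are equal apart from the final number and letters, 43 held both a rise and a fall of at least 2-fold. These groups were picked for that contrast and get no test, and a shared stem does not always mean a shared family, as in Pdcd11 (1.51) and Pdcd4 (-3.06). Beside the CTP synthases and the Ubash3 pair, Ets2 rose by 1.42 where Ets1 fell by 2.15. Ero1a, an oxidase of the endoplasmic reticulum, rose by 1.42 and its relative Ero1b fell by 2.09. The chemokine receptor genes Ccr8 and Ccr9, linked to skin and gut, had changes of 2.40 and -2.37. In the interferon regulatory factors Irf4 rose by 2.57 and Irf2 fell by 1.32, and in the SLAM family Slamf1 rose by 3.16 and Slamf6 fell by 1.31.

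**Figure D5:**
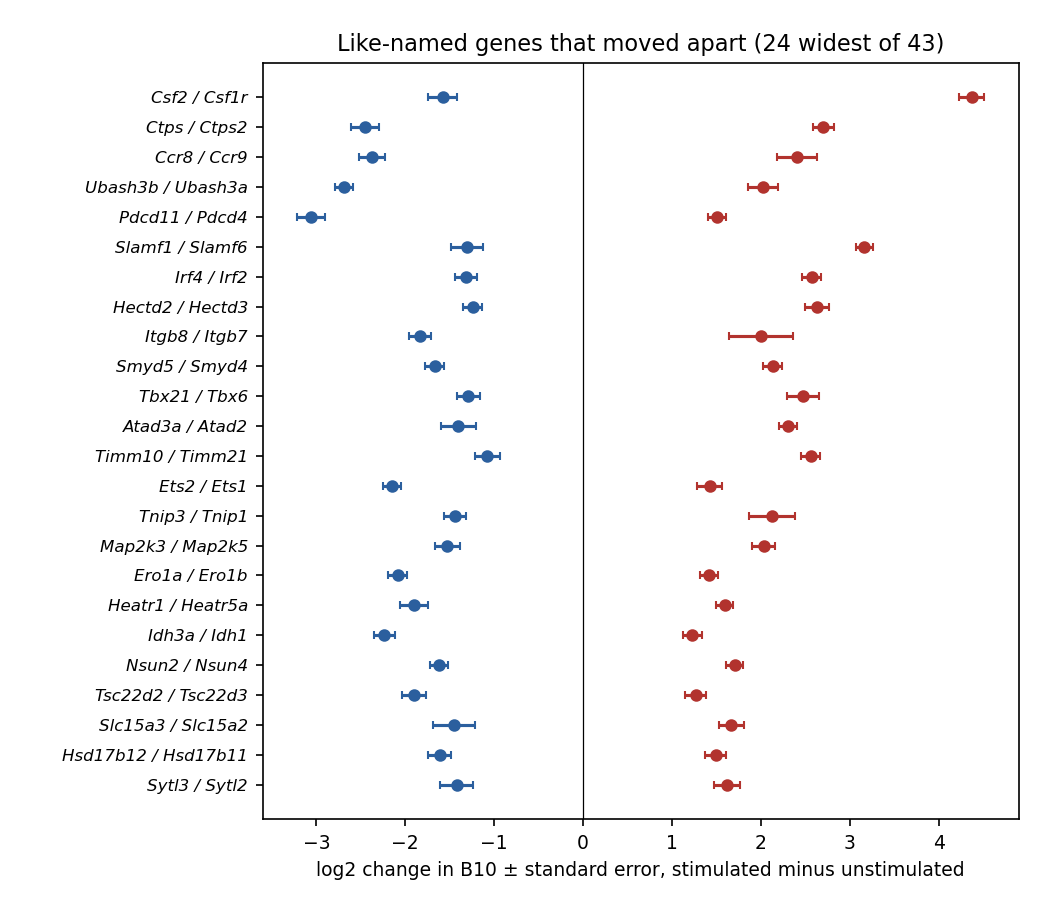
Change in B10 (T1 minus T0, log2) of the gene that rose (red) and the gene that fell (blue) in the 24 widest of 43 groups of like-named genes, with bars of 1 standard error of limma's fit. The widest spans are those of Csf2 with Csf1r (a ligand and the receptor of another ligand) and of Ctps with Ctps2.

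The test of the difference between the B10 and the NOD response called 49 of 19938 genes (0.246%), while 1841 had an unadjusted p under 0.05 in limma's test. The NOD response itself changed 7085 genes (35.5%). In 24 of the 49 both strains changed the same way by different amounts, in 8 only B10 was called, in 14 only NOD, and in 3 the strains went opposite ways. Arg1, arginase, had 5.53, 5.15 and 5.56 at T0 and 8.72 and 8.48 at T1 in B10, a rise of 3.19 against 1.06 in NOD (difference 2.12 ± 0.21, adjusted p = 0.00103). Il4 rose by 2.08 in B10 and had a change of 0.20 in NOD (difference 1.88 ± 0.29, adjusted p = 0.0216), and Il13 rose by 3.50 and 1.80 (difference 1.70 ± 0.28, adjusted p = 0.0307). The other named differences are given with the closing observations. The call of Il4 was kept in only 11 of 21 alternatives and that of Il13 in only 9 of 21.

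At the threshold itself the changes were modest. Phf2, Hps3 and Padi4 lay just inside it with changes of -0.31, -0.28 and 0.37, and Gatc, Gm10440 and Ywhaz just outside with 0.27, -0.43 and -0.27.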

How the data were processed

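Per the submitters' processing notes, the authors made the deposited log2 intensities with RMA in Affymetrix Power Tools, with no version given. RMA subtracts background, gives every array the same distribution and sums up each probe set in 1 value. No source states the base of the logarithm, and values from 2.15 to 14.92 in B10 fit base 2. The probes' assembly and detection calls were not used here. Of 35486 probe sets, 21789 have 1 gene symbol in the platform annotation, 1621 several and 12076 none listed. The brightest probe set stood for each of 19938 genes. All 10 arrays entered 1 limma fit (limma 3.58.1, R 4.3.3) with a mean for each of the 4 groups, which leaves 6 residual degrees of freedom, and eBayes gave two-sided tests. It was tested on simulated data. Lists are described by counts and medians, with no test. The members and lists were chosen with earlier results of these data known. Named genes are the 40 largest rises and falls called without overlap of arrays, list members, the 15 largest differences from NOD in each direction and neighbours of the threshold, leaving out predicted genes, olfactory and vomeronasal receptors and, outside the lists, small RNA genes. A few like-named genes and genes around small RNA genes were chosen after their values were seen. RefSeq tables (GRCm38.p6) gave positions and sequences, with mature sequences for 261 of 287 microRNA genes. The small number of arrays limits the precision. The closing section gives the alternatives tried. Figures were drawn with matplotlib 3.10.9.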

Additional observations from a re-analysis of the deposited data

Results flagged for a closer look

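The response of 30 named genes differed between the strains by the test of the difference itself (limma's interaction term, Benjamini-Hochberg over all 19938 genes). All values are the B10 response minus the NOD response on the log2 scale, from 5 arrays per strain. Leaving out 1 array at a time moved the count of differing genes from 49 to between 13 (without stimulated B10 replicate 2) and 69.

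A group of 9 kept the call in every alternative that could test it. Arg1, which degrades arginine, differed by 2.12, as it rose more in B10. Ifi202b differed by 2.28 and rose in both strains, but it belongs to a family of near-identical genes, so its probe set is uncertain. Nts, the neurotensin precursor, differed by -2.41, with a change of 0.25 in B10 and a rise of 2.66 in NOD. Arhgap31, a GTPase-activating protein, differed by -2.41, as it fell by 1.55 in B10 and rose by 0.85 in NOD. Dipk1a (-1.46) fell further in B10. Trim12a differed by -1.72, but its mean was 4.10 at T0 in NOD against 9.75 in B10, so there was little room for a fall in NOD. Dhrs3, a retinal reductase, differed by -1.69, with a change of 0.11 in B10 and a rise of 1.80 in NOD. Pmp22 differed by -1.36, with the larger rise in NOD. Kcnj10, a potassium channel, differed by 1.17, with a change of 0.05 in B10 and a fall of 1.12 in NOD.

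The other 21 lost the call in at least 1 alternative. Of the cytokine genes among them, Il4 (1.88) rose in B10 and was not called in NOD, and Il13 (1.70) and Csf2 (1.34) rose further in B10. Crtam differed by 1.37 and Ubash3b by 1.33, again with larger rises in B10. Lgals3 (1.33) rose in B10 and fell in NOD. Cr2 (1.44) rose in B10 and was not called in NOD, while Cd79a (1.25), Anxa1 (1.22), Cnga1 (1.26) and Klra17 (1.64) fell further in NOD. Kansl1l (1.24) fell in NOD alone. On the negative side, Pttg1 (-1.40), Klrb1c (-1.08), Lgals9 (-1.07), Hdhd5 (-0.99) and Ypel3 (-0.89) fell further in B10. The T0 means of Klrb1c in NOD (4.49) and of Cnga1 and Klra17 in B10 (4.17 and 5.00) also left little room for a fall. Oas3 (-0.97) fell in B10 alone. Irak1bp1 (-1.03), Casq1 (-0.87) and Adgrg7 (-0.80) rose in NOD alone. Cd79a and Cr2 are B cell genes, and the mean of 8 B cell markers was 7.36 and 7.31 on the stimulated B10 arrays and 7.14 on both stimulated NOD arrays. Its part in these differences was not tested.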

How the results depend on the processing

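Among named genes called in the main fit, none reversed its direction under any alternative run. Named genes without a call, many with changes near zero, were not counted for this. Against a minimum change of 1.2-fold, 3882 genes were called (1602 rose, 2280 fell), the difference from NOD was called for 11 genes, and 77 of 188 counts of list members moved by over 1.5 times; no other alternative moved more than 32. With every probe set tested, 4221 rose, 1407 rose and 1816 fell at least 2-fold, because more features entered. The count of genes that differed from NOD was 31 with each array shifted to one 75th percentile, 31 with array weights, 102 with trend and robust settings and 80 with the erythroid mean as a covariate; the cause was not tested. That shift moved the median change of all genes from 0.03 to 0.10.

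Leaving out each array in turn gave 5376 to 6596 called genes (2316 to 2866 rose, 3060 to 3730 fell), 792 to 854 rises and 996 to 1121 falls of at least 2-fold, and 13 to 69 differences from NOD. Where 1 stimulated array was left, it was assumed to vary like the other groups. Without both B10 arrays of replicate 3, 4876 genes were called. Replicate numbers repeat across states, but no label names the animal, so the samples were not treated as paired. Deviations of same-numbered arrays nevertheless correlated at 0.41 and 0.40 in B10, and at -0.014 and 0.22 in NOD. Both stimulated arrays of a strain deviate by equal and opposite amounts, so its correlations are not independent. They cannot decide whether the B10 samples are paired. With a fixed replicate block 6285 genes were called in B10 and 90 differed from NOD, and with a random replicate block 6558 and 69. The fit of the 5 B10 arrays alone holds no NOD array and so cannot test that difference. Of 999 genes with several probe sets, 415 were called, and in 371 of those all probe sets agreed in sign.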

Other observations

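Some values separated arrays by replicate number and not by state. Kcnma1, a calcium-activated potassium channel, had log2 intensities of 4.65, 11.94 and 6.39 on replicates 1, 2 and 3 at T0 and 11.79 and 6.74 on replicates 2 and 3 at T1 (adjusted p = 0.605 in limma for the change). The gene was chosen after its values were seen. The erythroid genes Rhag and Slc4a1 differed between the stimulated arrays by -3.01 and -2.74 (replicate 2 minus replicate 3), and between the unstimulated arrays of the same numbers by -3.43 and -3.15.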
